A study of Homo sapiens with 9 samples.

Results

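The genes of mitosis were followed in human NCI-H295R cells, an established adrenocortical carcinoma line that makes steroids. The members are 48 named genes of the G2 and M phases, of 18417 genes named on the array. They were listed by name, but with earlier results of these data known. The array annotation gave 47 of the 48 a probe set of their own, and the brightest was used where a gene had several (WEE1 and BIRC5). CENPA was the exception, because its only probe set is shared with SLC35F6.

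RNA was measured on 9 Affymetrix Human Gene 1.0 ST arrays in 3 groups of 3, lettered A, B and C. All cells were grown for 24 h before 48 h of one condition. The metformin group was kept in serum-free starvation medium with 10 mM metformin, the starved group in that medium alone, and the normal growth group in complete medium. Complete medium holds NU-I serum with insulin, transferrin and selenium, and starvation medium lacks all of these, so the effect of serum cannot be told apart from that of the supplements. Metformin was given only in starvation, at 1 dose and 1 time. All groups are the same line, and the methods describe independent experiments for normal growth and starvation only, so the spread between metformin arrays may be technical. Values are RMA levels on the log2 scale, where a difference of -1 is a halving of signal, and they compare 1 gene across arrays but not 1 gene with another.

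Cells that divide switch on a shared set of genes late in the cell cycle. Cyclin B with CDK1 drives entry into mitosis, kinetochores tie chromosomes to spindle fibres under a checkpoint, and the anaphase-promoting complex (APC/C) then marks securin and the cyclins for destruction. Many of these genes carry a CHR, a short promoter element bound by the MuvB complex, often near CCAAT boxes bound by NF-Y. Metformin is a diabetes drug known to act on mitochondrial respiration and AMPK.

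The promoters of 5 members with large changes under metformin are shown because they hold the element by which such genes are usually recognised. Each runs 5′ to 3′ on the strand of its gene, from 250 bases before to 50 bases from the annotated start, in RefSeq's GRCh38.p14. Capitals mark CHR matches (the letters TTTGAA, read as TTCAAA on the opposite strand, and the variant form TTCGAA) and CCAAT boxes (read as ATTGG on the opposite strand). SPC25 lies at chr2:168890381-168890680, minus strand. NCAPG lies at chr4:17810729-17811028, plus strand. NDC80 lies at chr18:2571307-2571606, plus strand. KIF4A lies at chrX:70289854-70290153, plus strand. KIF11 lies at chr10:92592880-92593179, plus strand.
SPC25: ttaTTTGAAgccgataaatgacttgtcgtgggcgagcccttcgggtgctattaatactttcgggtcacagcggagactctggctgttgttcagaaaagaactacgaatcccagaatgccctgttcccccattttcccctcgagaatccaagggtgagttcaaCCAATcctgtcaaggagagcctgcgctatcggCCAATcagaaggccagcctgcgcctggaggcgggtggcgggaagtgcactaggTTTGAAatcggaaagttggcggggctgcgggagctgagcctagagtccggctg
NCAPG: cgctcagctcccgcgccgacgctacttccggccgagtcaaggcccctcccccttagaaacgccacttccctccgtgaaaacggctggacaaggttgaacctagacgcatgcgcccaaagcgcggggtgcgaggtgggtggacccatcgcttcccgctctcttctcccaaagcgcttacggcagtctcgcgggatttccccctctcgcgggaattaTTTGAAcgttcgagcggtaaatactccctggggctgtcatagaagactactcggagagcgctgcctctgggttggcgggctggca
NDC80: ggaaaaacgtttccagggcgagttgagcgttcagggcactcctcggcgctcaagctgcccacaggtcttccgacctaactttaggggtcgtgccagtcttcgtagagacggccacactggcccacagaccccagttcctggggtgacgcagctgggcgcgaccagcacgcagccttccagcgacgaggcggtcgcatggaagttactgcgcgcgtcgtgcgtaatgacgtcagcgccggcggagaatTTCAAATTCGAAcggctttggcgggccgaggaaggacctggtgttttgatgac
KIF4A: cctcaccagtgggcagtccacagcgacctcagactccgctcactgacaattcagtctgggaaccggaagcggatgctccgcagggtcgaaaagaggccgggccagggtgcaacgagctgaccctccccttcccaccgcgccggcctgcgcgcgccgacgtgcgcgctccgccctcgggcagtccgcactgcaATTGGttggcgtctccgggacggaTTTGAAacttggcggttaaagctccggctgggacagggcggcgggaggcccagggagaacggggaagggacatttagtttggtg
KIF11: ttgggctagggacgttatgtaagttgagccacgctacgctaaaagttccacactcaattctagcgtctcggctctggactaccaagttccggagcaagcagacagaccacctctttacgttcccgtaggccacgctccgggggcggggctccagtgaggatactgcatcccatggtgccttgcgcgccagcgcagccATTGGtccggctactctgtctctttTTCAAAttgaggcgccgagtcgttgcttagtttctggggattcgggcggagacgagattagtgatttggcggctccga

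Among these 5, SPC25 and NDC80 each held 2 CHR matches and the others 1 each, and several members not shown also held more than 1. RefSeq windows were matched for 41 of the 48 members. A CHR was found in 33 of the 41 (80.5%), against 19.5% of 27305 genes with a window of that length. A CCAAT box was found in 32 members (78.0%), against 39.7% of all genes, and an E2F site in 11 (26.8%), against 13.1%. From 100 bases before to 50 after the start, an E2F site was found in 4 members (9.76%), against 7.33% of genes. There the CHR was in 75.6%, against 9.09%, and the CCAAT box in 68.3%, against 25.3%. The E2F site was searched as TTCCCGC, with the further forms TTGGCGC and also TTCGCGC. Both strands were searched and each motif was counted whether or not it overlapped another. Members with a CHR had a median metformin minus starved change of -0.18 (n = 32 measured), and those without one -0.09 (n = 8), with overlapping ranges. In starvation minus normal growth the order was the opposite, at -0.17 with a CHR and -0.25 without, and in metformin minus normal growth the medians were -0.36 and -0.33. Members with a CCAAT box had a median metformin minus starved change of -0.10, and those without one -0.30. These matches describe letters in a window and were not tested for binding.

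**Figure D1:**
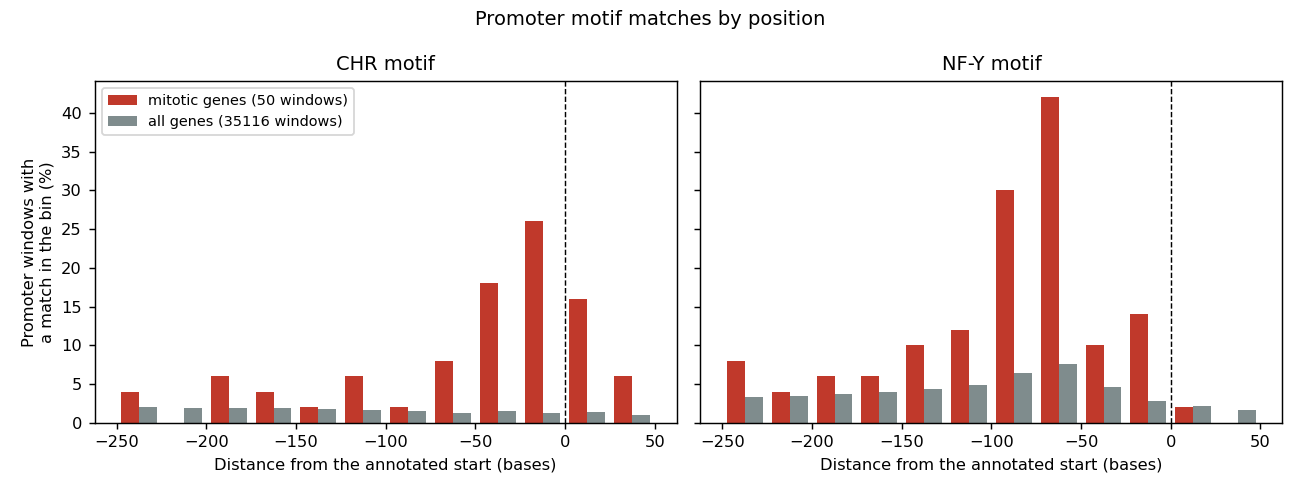
Share of promoter windows (vertical axis, percent) with a CHR (left) or CCAAT box (right, labelled NF-Y motif) in bins of 25 bases by distance from the annotated start, for 50 windows of the mitotic genes (red) and 35116 windows of all genes (grey). Member CHR matches were most frequent in the bin just before the start (26.0% of windows, against 1.26% of all) and CCAAT boxes a little further upstream (42.0%, against 7.62%).

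All 47 members were above the median of every array, with mean levels of 7.81 to 11.6. By group means, 40 of the 47 were lowest with metformin, intermediate in starvation and highest in normal growth, and 45 had their highest value of 9 on a normal growth array. Neither count was made over all probe sets. None differed by 2-fold in any comparison. The 3 comparisons share arrays, and the metformin minus growth change is the sum of the other two changes.

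The shift also differed between arrays of 1 group. As the median over members of the value minus the gene's normal growth mean, metformin arrays A, B and C were at -0.23, -0.38 and -0.37. Starved arrays A, B and C were at -0.13, -0.26 and -0.15, and normal growth arrays at 0.02, -0.04 and 0.03. Metformin A was the highest of its group for 43 members, and starved B the lowest of its group for 42, with medians of -0.23 and -0.26. Starved A was the highest of its group for 30 members, and normal growth B the lowest of its group for 33. Metformin B and C were each the lowest of their group for 23. Over all probe sets the same medians lay between -0.01 and 0.01, while the highest and lowest arrays were counted for the members only. In RNA from whole cultures, fewer cells in mitosis and less RNA per cell cannot be told apart. For starvation against normal growth, the paper reports flow cytometry of DNA content in this line, with no significant effect on the cell cycle. Cells with metformin were not part of that measurement, and its relation to the shifts on these arrays was not tested.

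**Figure D2:**
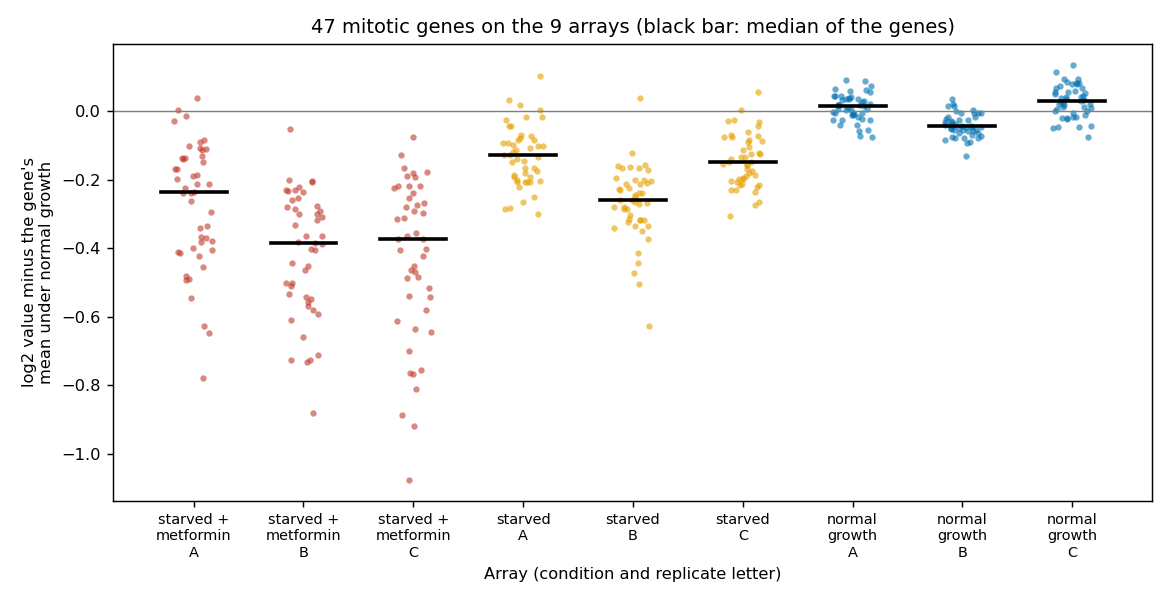
Each point is 1 of 47 mitotic genes on 1 array, as its log2 value minus its own mean under normal growth (vertical axis), with the median as a black bar. The metformin medians ran from -0.38 to -0.23, the starved medians from -0.26 to -0.13 and the normal growth medians from -0.04 to 0.03.

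Metformin was first compared with starvation alone, to ask what the drug added. At an adjusted p under 0.05, 7 of 47 members (14.9%) were lower, against 1.98% of all 33297 probe sets, and 0 were higher, against 2.3% (limma, Benjamini-Hochberg). Among probe sets at least as bright as the dimmest member, 4.58% were lower. The 7 were SPC25, NCAPG, NCAPH, WEE1, BIRC5, CDCA8 and DLGAP5. The median member changed by -0.15, and the median probe set by -0.01. All metformin arrays lay below all starved arrays for 21 members (44.7%), against 11.4% of probe sets, and above them for PTTG1 alone. At an unadjusted p under 0.05, 18 members were lower, against 8.63% of probe sets, and 1 was higher. No call was left without metformin A or B or without starved A, B or C (15 to 23 members lower at an unadjusted p under 0.05), and 2 were left without metformin C. Of all 33297 probe sets, 0 were lower without metformin A or without starved A, B or C. The array-wide number was 348 without metformin B and 390 without metformin C, against 659 with all arrays.

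With metformin in starvation against normal growth, where both drug and medium differ, 27 of 47 members (57.4%) were lower, against 4.44% of probe sets, and 0 were higher, against 4.63% (limma, 43 lower, against 11.2% of probe sets, and 0 higher at an unadjusted p under 0.05). Of the equally bright probe sets 10.5% were lower. All 47 changes were negative, against 50.9% of probe sets, with a median of -0.34. The metformin arrays lay below all normal growth arrays for 43 members (91.5%), against 14.1% of probe sets. The count was 25, 14 and 21 without metformin A, B or C, and 3, 4 and 4 without normal growth A, B or C. Over all 33297 probe sets, 1478 were lower with all arrays. That number was 813, 1052 and 1655 without metformin A, B or C, and 230, 239 and 246 without normal growth A, B or C.

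Starvation against normal growth gave no call in either direction, against 0.108% of probe sets lower and 0.042% higher (limma), and 0.21% of the equally bright ones were lower. The smallest adjusted p was 0.148, for KIF20A. Yet 46 of 47 changes were negative, against 50.6% of probe sets, with a median of -0.19. By limma, 29 members were lower and 0 higher at an unadjusted p under 0.05, against 4.74% of probe sets lower. That count was 16 without normal growth A and 16 with a common median. No alternative fit gave a call, including the methods’ t-test, which the methods name in general and not for the arrays. All starved arrays lay below all normal growth arrays for 38 members (80.9%), against 7.62% of probe sets. Without starved B the median was -0.14. WEE1 was the only positive change, at 0.04.

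**Figure D3:**
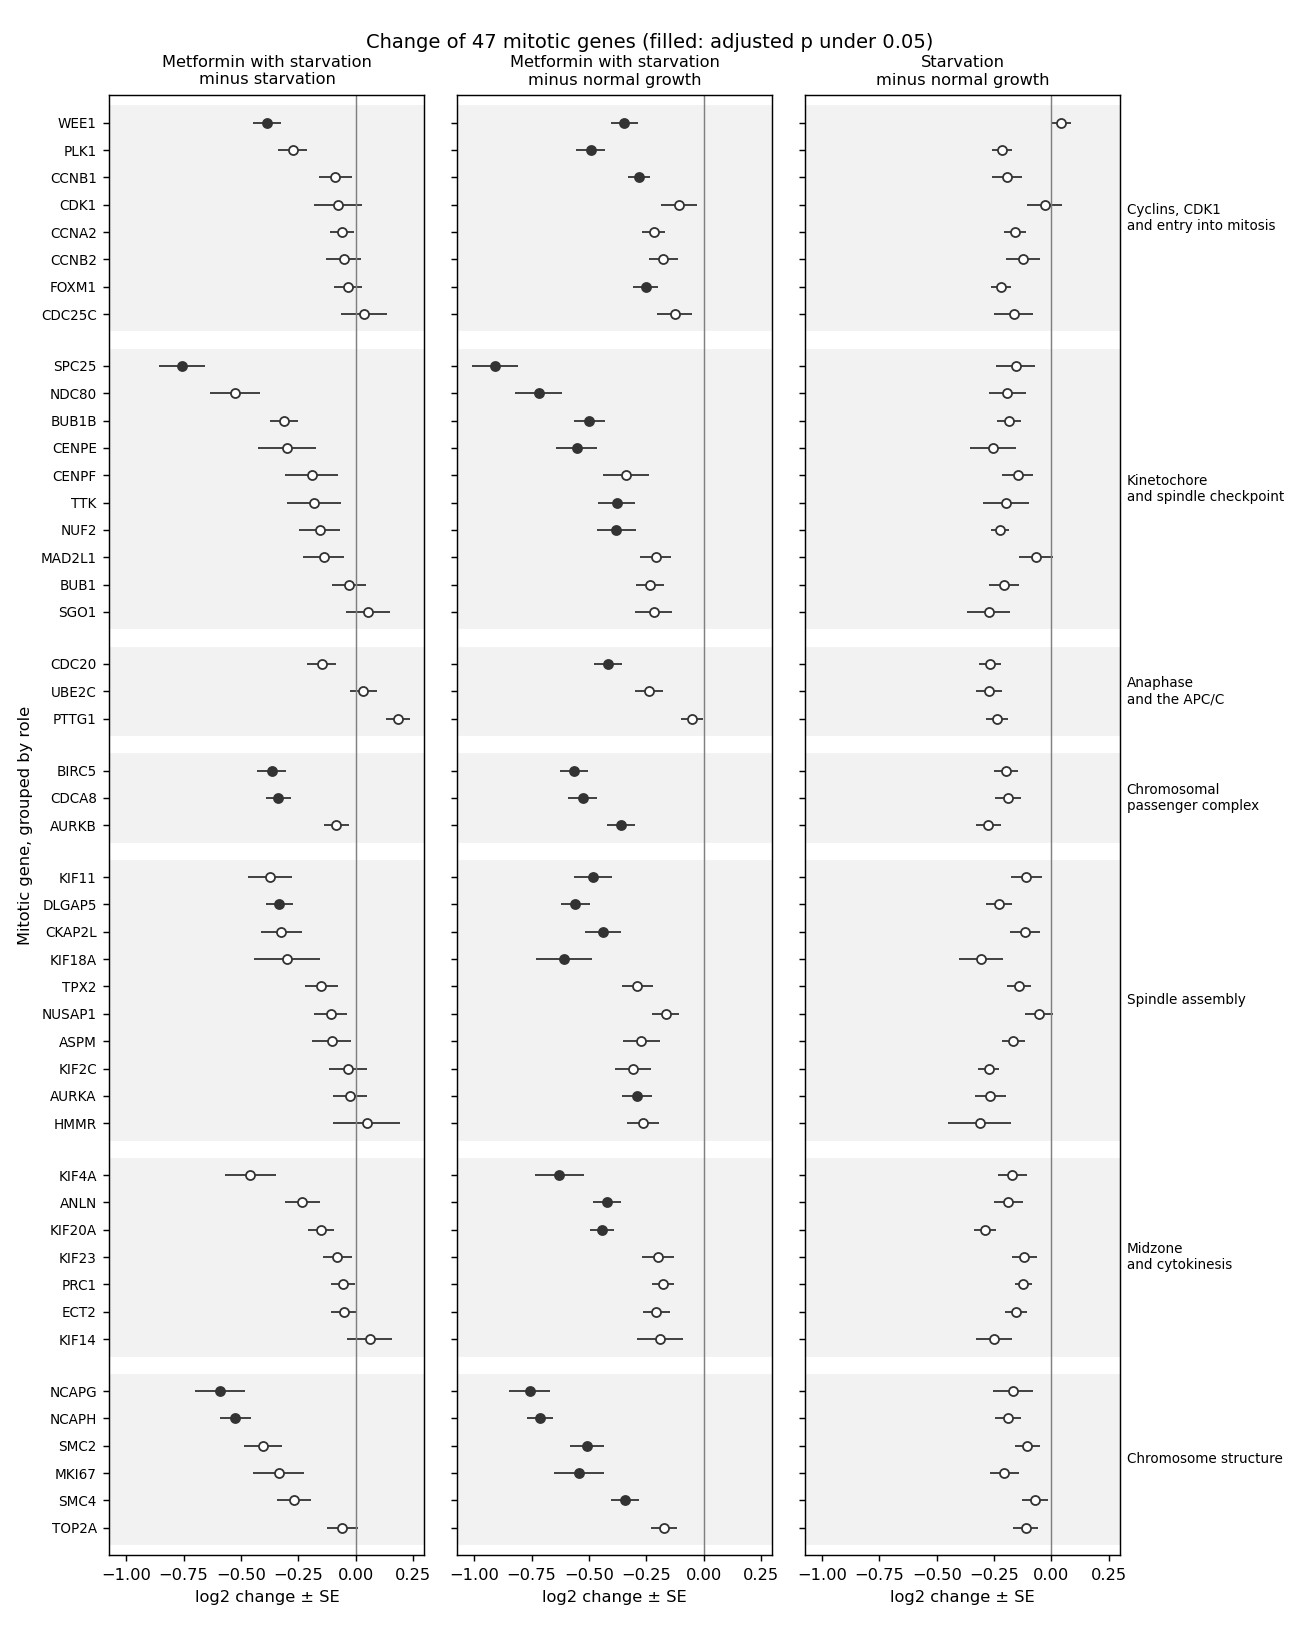
Log2 change ± SE (horizontal axis) of 47 mitotic genes, grouped by role, in 3 comparisons, with filled points at an adjusted p under 0.05. Filled points number 7 on the left, 27 in the middle and 0 on the right, and nearly all points lie left of 0 in the middle and right panels.

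Among the cyclins, CDK1 and regulators of mitotic entry, 1 of 8 was lower with metformin than in starvation and 4 of 8 than in normal growth. Of all probe sets 1.98% and 4.44% were lower, and of the equally bright ones 4.58% and 10.5%. These shares stand beside each role group, where 1 call among so few genes says little about the group. WEE1, the kinase that holds CDK1 inactive, read 8.38, 8.24 and 8.27 on the metformin arrays, 8.67, 8.68 and 8.70 on the starved arrays and 8.63, 8.60 and 8.69 on the normal growth arrays. The metformin arrays were the lowest of the 9, while starved and growth arrays overlapped, and the change against starvation was -0.39 ± 0.06 (SE, limma adjusted p = 0.0295). Its other probe sets moved the other way, by 0.41 and 0.34, without passing the test, so the call rests on the brightest one.

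PLK1, a kinase needed for spindle assembly and mitotic entry, read 11.10, 10.92 and 11.04 on the metformin arrays, 11.30, 11.27 and 11.31 on the starved arrays and 11.50, 11.47 and 11.56 on the normal growth arrays. The 3 groups did not overlap, and PLK1 fell by 0.49 against normal growth (limma adjusted p = 0.0125), with -0.28 against starvation (adjusted p = 0.0805). FOXM1, a transcription factor of G2/M genes, read 10.66, 10.52 and 10.61 on the metformin arrays, 10.66, 10.58 and 10.64 on the starved arrays and 10.86, 10.82 and 10.87 on the normal growth arrays. Metformin and starved arrays overlapped, at a change of -0.03, and both lay below normal growth, where the metformin difference passed (-0.25, limma adjusted p = 0.0484).

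CDC25C, a phosphatase that activates CDK1, read 7.98, 7.78 and 7.80 on the metformin arrays, 7.88, 7.65 and 7.92 on the starved arrays and 8.05, 7.96 and 7.93 on the normal growth arrays. Metformin arrays overlapped both other groups. CCNB1, the B-type cyclin, fell by 0.28 against normal growth (limma adjusted p = 0.0241). CDK1 itself gave the smallest shifts of this set against growth, at -0.11 with metformin and -0.03 in starvation, while CCNA2 and CCNB2 were at -0.22 and -0.17 with metformin and missed the threshold.

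Of the kinetochore and checkpoint genes, 1 of 10 was lower with metformin than in starvation, against 1.98% of all probe sets. Compared with normal growth 6 of 10 were lower, against 4.44%. SPC25, a subunit of the NDC80 complex that grips microtubules, read 7.39, 7.28 and 7.09 on the metformin arrays, 8.06, 7.88 and 8.08 on the starved arrays and 8.10, 8.09 and 8.30 on the normal growth arrays. Every metformin array lay below every other array, and SPC25 fell 1.69-fold against starvation, by 0.76 ± 0.10 (SE, limma adjusted p = 0.0225), and by 0.91 against normal growth (adjusted p = 0.00846).

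NDC80, which names the complex, read 8.84, 8.66 and 8.50 on the metformin arrays, 9.30, 9.07 and 9.20 on the starved arrays and 9.39, 9.29 and 9.47 on the normal growth arrays. Metformin arrays were again the lowest, at -0.53 against starvation (limma adjusted p = 0.0591), and the fall of 0.72 against normal growth passed (adjusted p = 0.0144). NUF2, its partner, fell by 0.38 against normal growth (limma adjusted p = 0.0473) and was at -0.16 against starvation.

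BUB1, a checkpoint kinase, read 10.32, 10.18 and 10.19 on the metformin arrays, 10.32, 10.14 and 10.32 on the starved arrays and 10.53, 10.42 and 10.44 on the normal growth arrays. SGO1, which protects centromeric cohesion, read 10.03, 9.85 and 9.89 on the metformin arrays, 9.96, 9.70 and 9.94 on the starved arrays and 10.12, 10.05 and 10.25 on the normal growth arrays. For both genes metformin and starved arrays overlapped, with changes of -0.03 and 0.06, and normal growth arrays were above all others. BUB1B, the checkpoint protein BubR1, changed by -0.31 against starvation, just outside the threshold (limma adjusted p = 0.0503), and fell by 0.50 against normal growth. CENPE, a kinetochore motor, and TTK, the checkpoint kinase MPS1, fell by 0.55 and 0.38 against normal growth, whereas CENPF and MAD2L1 did not pass. The probe set that CENPA, the centromeric histone, shares with SLC35F6 read 9.63, 9.37 and 9.59 on the metformin arrays, 9.29, 9.28 and 9.32 on the starved arrays and 9.48, 9.46 and 9.60 on the normal growth arrays. The metformin arrays were above all starved arrays, by 0.23 (limma adjusted p = 0.192), and these values cannot be assigned to CENPA alone.

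The 3 genes of anaphase onset gave 0 calls against starvation and 1 against normal growth, where 1.98% and 4.44% of all probe sets were lower. CDC20, the activator of the APC/C in mitosis, read 10.59, 10.47 and 10.60 on the metformin arrays, 10.67, 10.70 and 10.74 on the starved arrays and 10.96, 10.92 and 11.03 on the normal growth arrays. Metformin lay below starvation and starvation below growth, and the fall of 0.42 against growth passed (limma adjusted p = 0.0161). UBE2C, the ubiquitin-conjugating enzyme of the APC/C, read 8.50, 8.43 and 8.54 on the metformin arrays, 8.44, 8.41 and 8.51 on the starved arrays and 8.70, 8.67 and 8.81 on the normal growth arrays. Metformin and starved arrays overlapped below normal growth.

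PTTG1, securin, which keeps sister chromatids together until anaphase, read 9.81, 9.79 and 9.77 on the metformin arrays, 9.64, 9.56 and 9.63 on the starved arrays and 9.80, 9.84 and 9.88 on the normal growth arrays. The metformin arrays lay above all starved arrays, by 0.18 with a 95% interval of 0.05 to 0.31 (limma adjusted p = 0.125), and overlapped normal growth. PTTG1 passed as higher when all 9 arrays shared 1 fit (limma adjusted p = 0.0494, and 0.0494 to 0.383 over the alternatives).

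The chromosomal passenger complex, which corrects faulty attachments, had 2 of 3 members lower with metformin than in starvation and 3 of 3 than in normal growth. Of all probe sets 1.98% and 4.44% were lower. BIRC5, survivin, read 8.85, 8.78 and 8.71 on the metformin arrays, 9.10, 9.15 and 9.20 on the starved arrays and 9.32, 9.30 and 9.42 on the normal growth arrays. CDCA8, borealin, read 9.16, 9.08 and 9.10 on the metformin arrays, 9.44, 9.43 and 9.49 on the starved arrays and 9.57, 9.62 and 9.74 on the normal growth arrays. For both, metformin arrays were below all starved arrays and those below all normal growth arrays, and the falls against starvation were 0.37 and 0.34 (limma adjusted p = 0.0381 and 0.0320). The other, dimmer probe set of BIRC5 changed by -0.25 against starvation with overlapping arrays (limma adjusted p = 0.366). In starvation minus normal growth that probe set was at 0.05.

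AURKB, the kinase of the complex, read 9.38, 9.42 and 9.47 on the metformin arrays, 9.50, 9.54 and 9.47 on the starved arrays and 9.70, 9.78 and 9.86 on the normal growth arrays. The metformin arrays lay just below all starved arrays, with a change of -0.08 (limma adjusted p = 0.466), and the fall of 0.36 against normal growth passed (adjusted p = 0.0229).

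Of the spindle genes, 1 of 10 was lower with metformin than in starvation, against 1.98% of all probe sets. Compared with normal growth 5 of 10 were lower, against 4.44%. DLGAP5, a spindle-stabilising protein, read 9.96, 9.84 and 9.87 on the metformin arrays, 10.26, 10.17 and 10.24 on the starved arrays and 10.51, 10.37 and 10.48 on the normal growth arrays. The groups did not overlap, and DLGAP5 fell by 0.33 ± 0.06 against starvation (SE, limma adjusted p = 0.0428) and by 0.56 against growth. KIF11, the motor that separates spindle poles, read 9.94, 9.93 and 9.69 on the metformin arrays, 10.31, 10.11 and 10.26 on the starved arrays and 10.40, 10.29 and 10.31 on the normal growth arrays. Metformin arrays were the lowest, at -0.37 against starvation (limma adjusted p = 0.0953), with a fall of 0.48 against growth (adjusted p = 0.0243).

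AURKA, the centrosomal Aurora kinase, read 9.94, 9.85 and 9.80 on the metformin arrays, 9.95, 9.78 and 9.93 on the starved arrays and 10.10, 10.12 and 10.24 on the normal growth arrays. HMMR, a spindle and hyaluronan-binding protein, read 7.99, 7.91 and 7.79 on the metformin arrays, 7.99, 7.54 and 8.02 on the starved arrays and 8.17, 8.11 and 8.21 on the normal growth arrays. In both, metformin and starved arrays overlapped, and starved B was the lowest of the 9 arrays. AURKA fell by 0.29 against normal growth (limma adjusted p = 0.0493). KIF18A and CKAP2L fell by 0.61 and 0.44 against normal growth, while TPX2, NUSAP1, ASPM and KIF2C lay between -0.31 and -0.16 and did not pass.

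Midzone and cytokinesis genes gave 0 of 7 calls against starvation (limma, 3 lower at an unadjusted p under 0.05, against 8.63% of probe sets). Against normal growth 3 of 7 were called. Of all probe sets 1.98% and 4.44% were called lower. KIF4A, a chromosome-bound motor of the midzone, read 8.72, 8.48 and 8.33 on the metformin arrays, 9.05, 8.90 and 8.95 on the starved arrays and 9.19, 9.16 and 9.06 on the normal growth arrays. Metformin arrays were the lowest, at -0.46 against starvation (limma adjusted p = 0.0830), and KIF4A fell by 0.63 against growth (adjusted p = 0.0233). A probe set shared with KIF4B gave -0.33 and -0.55.

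ANLN, anillin of the contractile ring, read 10.51, 10.38 and 10.38 on the metformin arrays, 10.72, 10.54 and 10.71 on the starved arrays and 10.86, 10.79 and 10.88 on the normal growth arrays. ECT2, the exchange factor that activates RhoA, read 10.73, 10.61 and 10.65 on the metformin arrays, 10.72, 10.70 and 10.71 on the starved arrays and 10.87, 10.80 and 10.93 on the normal growth arrays. ANLN was lower on every metformin array than on any starved array (-0.23) and fell by 0.42 against growth, whereas ECT2 overlapped starvation (-0.05). KIF14, a kinesin of cytokinesis, read 8.65, 8.38 and 8.38 on the metformin arrays, 8.49, 8.31 and 8.42 on the starved arrays and 8.75, 8.53 and 8.70 on the normal growth arrays. Metformin overlapped both other groups. KIF20A fell by 0.44 against normal growth (limma adjusted p = 0.0103), and PRC1 and KIF23 did not pass, at -0.18 and -0.20.

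Chromosome structure had 2 of 6 members lower with metformin than in starvation and 5 of 6 than in normal growth. Of all probe sets 1.98% and 4.44% were lower. The group's median change against starvation, -0.37, was the most negative of the role groups. NCAPG, a condensin I subunit, read 9.72, 9.62 and 9.43 on the metformin arrays, 10.25, 10.01 and 10.27 on the starved arrays and 10.31, 10.29 and 10.44 on the normal growth arrays. NCAPH, another condensin I subunit, read 9.25, 9.17 and 9.14 on the metformin arrays, 9.70, 9.64 and 9.80 on the starved arrays and 9.94, 9.86 and 9.90 on the normal growth arrays. All metformin arrays were below all others, and the falls against starvation were 0.59 ± 0.11 and 0.52 ± 0.07 (SE, limma adjusted p = 0.0445 and 0.0209).

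SMC4, a core condensin ATPase, read 10.36, 10.22 and 10.20 on the metformin arrays, 10.58, 10.43 and 10.57 on the starved arrays and 10.64, 10.58 and 10.58 on the normal growth arrays. TOP2A, the topoisomerase that untangles sister chromatids, read 11.39, 11.28 and 11.26 on the metformin arrays, 11.41, 11.28 and 11.41 on the starved arrays and 11.52, 11.46 and 11.46 on the normal growth arrays. SMC4 on metformin lay below all starved arrays (-0.27) and fell by 0.34 against growth, whereas TOP2A overlapped starvation (-0.06) and did not pass against growth (-0.17). SMC2, its partner, and MKI67, the Ki-67 proliferation marker that coats chromosomes, fell by 0.51 and 0.54 against normal growth.

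**Figure D4:**
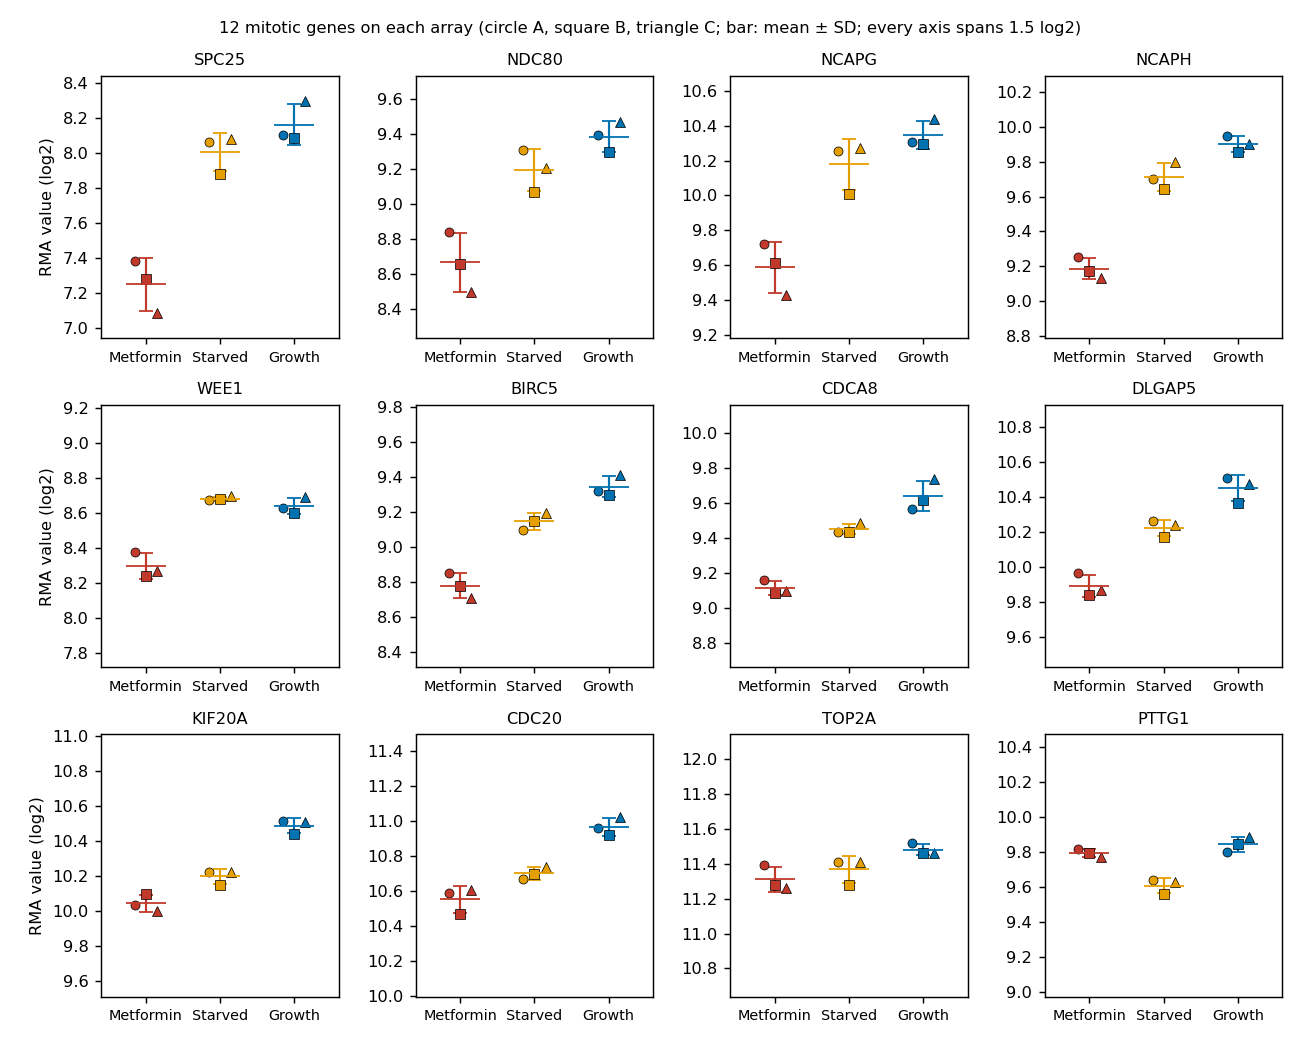
RMA values (log2, vertical axis) of 12 mitotic genes on each array, with circles, squares and triangles for A, B and C and bars for mean ± SD (n = 3), each axis spanning 1.5 log2 units. All but TOP2A and PTTG1 show every metformin array below both other groups. TOP2A overlaps starvation with metformin, and PTTG1 shows the starved arrays lowest.

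Other lists of the cell cycle gave the setting. Of all probe sets, 1.98% were lower with metformin against starvation, 4.44% with metformin against growth and 0.108% in starvation against growth. Of those at least as bright as the dimmest mitotic member, 4.58%, 10.5% and 0.21% were lower. Of 67 other measured mitotic genes, 9, 32 and 0 were lower with metformin against starvation, with metformin against growth and in starvation against growth (limma), among them ZWINT and SPC24 of the kinetochore, at -0.66 and -0.48 against starvation. Of 50 DNA replication genes, 19, 27 and 0 were lower, with medians of -0.37, -0.43 and -0.02. MCM2 and MCM7, helicase subunits, changed by -0.91 and -0.66 against starvation. The replication median thus lay near 0 in starvation, where the mitotic median was -0.19, and the difference between the lists was not tested.

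Of 19 MuvB, DREAM and E2F factors, 4 (21.1%) were lower with metformin than in starvation, against 1.98% of all probe sets. They were led by MYBL2 (-0.82), which binds MuvB at CHR promoters, and by E2F7, E2F8 and E2F2. Of 16 APC/C subunits 1 was lower (ANAPC15, -0.57), or 6.25%, near the 4.58% of equally bright probe sets. Of 15 G1 cyclins, kinases and inhibitors 3 were lower (CCND3, CCNE2 and CDKN1A), or 20%. None of 9 reference genes was called lower in any comparison, and 1 (B2M) was higher with metformin than in normal growth, by 0.30 (limma adjusted p = 0.0470). Their changes with metformin against starvation ran from -0.16 to 0.29, with a median of -0.002. Single reference genes thus moved as much as the median mitotic gene, at -0.15.

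**Figure D5:**
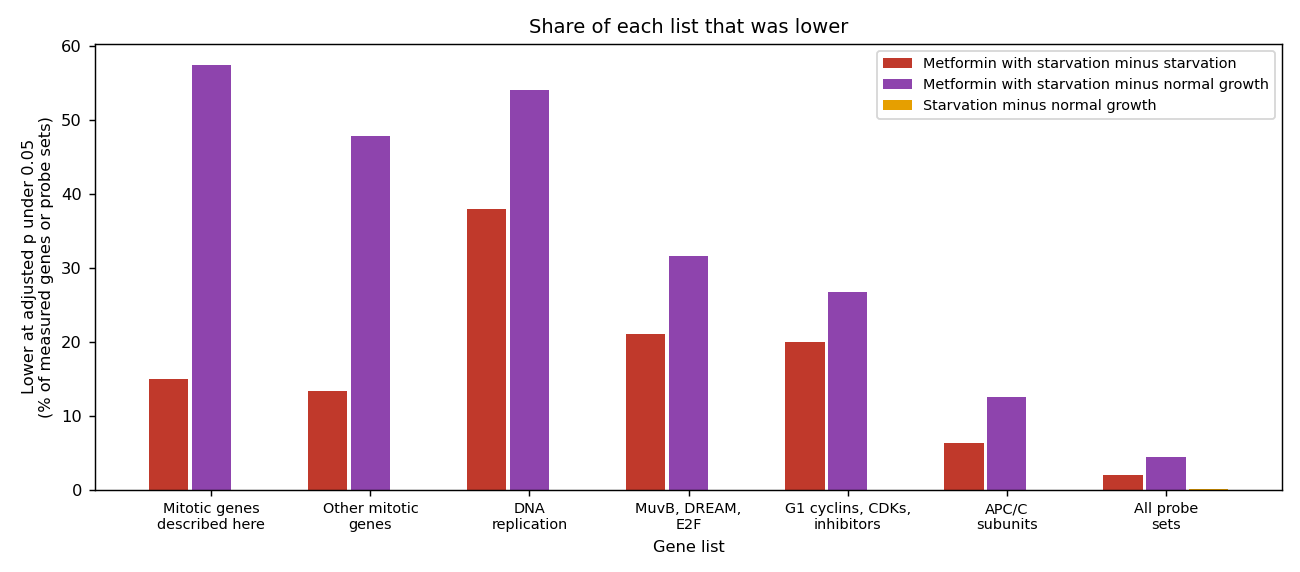
Percent of measured genes or probe sets lower at an adjusted p under 0.05 (vertical axis) for 6 gene lists and all probe sets in 3 comparisons. The mitotic genes reach 14.9% and 57.4% in the metformin comparisons and DNA replication 38% and 54%, and starvation against normal growth gives 0 in each of the 6 lists.

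Of 9 adrenocortical markers, 6 were above the median of every array. Some of them changed too, with NR5A1 and HSD3B2 lower and MC2R higher with metformin than in starvation, the same 3 and INHA (lower) called against normal growth, and HSD3B2 lower in starvation than in normal growth. HSD3B2, a steroid dehydrogenase, changed by -1.33, -3.32 and -1.99 in these comparisons (limma adjusted p = 0.0212, 0.00221 and 0.00648). None of 8 endothelial and 7 immune markers was above it, and 4 of 10 fibroblast and 3 of 8 epithelial markers were. None of those 4 lists had a lower call, EPCAM was higher with metformin than in normal growth (0.57, limma adjusted p = 0.0342), and the fibroblast sum of linear signals was 779 to 820 with metformin, 771 to 797 in starvation and 898 to 967 in normal growth. The part of these markers in the mitotic shifts was not tested. Arrays correlated at 0.990 to 0.995 within metformin, 0.994 to 0.997 within starvation and 0.996 to 0.997 within normal growth.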

How the data were processed

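RNA was hybridised to 9 Affymetrix Human Gene 1.0 ST arrays. The deposited values are on the log2 scale, made by the authors with RMA, which corrects background, sets all arrays to 1 distribution and summarises the probes of a set. This removes global shifts in RNA amount and compresses small differences. Affymetrix Expression Console and limma are listed in the submitters' processing notes, and the methods give Affymetrix Power Tools, with versions not given in the sources used here. Array values have no read depth, and the number of arrays limits precision. Groups came from sample titles.

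All 33297 probe sets entered a limma fit (version 3.58.1, under R 4.3.3) for each comparison, with its 6 arrays only and Benjamini-Hochberg adjustment over all probe sets, and called at an adjusted p under 0.05. The scripts were tested on simulated data. The members and lists were chosen with earlier results of these data known. Values on every array are given, in each role group, for up to 4 members with the largest and smallest changes in metformin against starvation. Of other lists, up to 4 genes with the smallest adjusted p are named. Promoters are of the named members with a CHR and the largest changes. The comparison with equally bright probe sets was added after the data were seen. Alternatives were another fit of all arrays, other scalings and filters, probe sets averaged, other variance models, the methods' t-test, a replicate block and leaving out each array. That t-test is Student's, which the methods name in general and not for the arrays. With 3 arrays against 3, a two-sided exact permutation test cannot go below p = 0.1, so none is given.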

Additional observations from a re-analysis of the deposited data

How the results depend on the processing

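The number of members lower with metformin than in starvation (7) was 15 in 1 fit of all 9 arrays, 16 with array weights, 13 without dim probe sets, 12 with single-gene probe sets only, 11 with quantile normalization again or with a trended robust prior, 3 by the methods' t-test, 2 with a common median and 0 to 2 with 1 array left out. In the fit of all 9 arrays 1 member was higher. Array-wide, the 659 lower probe sets became 1530 in that fit, 1411 with array weights and 1150 with a trended robust prior. They became 941 with quantile normalization again, 332 by the methods' t-test and 320 with a common median. Without dim probe sets 1185 of 19978 were lower, and 967 of 19460 with single-gene probe sets. Against normal growth the 27 lower members became 13 by the methods' t-test and 3 to 25 with 1 array left out, and 39 with array weights, 34 in 1 fit of all 9 arrays or without dim probe sets, 33 with single-gene probe sets or a trended robust prior and 30 with quantile normalization again. Array-wide, the 1478 lower probe sets became 764 by the methods' t-test, 2304 with array weights and 2132 in 1 fit of all 9 arrays. They became 1998 with a trended robust prior and 1725 with quantile normalization again. Without dim probe sets 2179 of 19978 were lower, and 1802 of 19460 with single-gene probe sets. The median change of members in starvation was -0.21 to -0.14 with 1 array left out. WEE1 turned to 0.12 when its probe sets were averaged, because its other sets moved up. With averaged probe sets 5 members were lower against starvation and 26 against normal growth. Of members not called, 8 of 40 changed sign under some alternative with metformin against starvation (at most 0.06 in size as reported, and from -0.11 to 0.14 over the alternatives for HMMR), 3 of 47 in starvation against growth and 0 of 20 with metformin against growth. Over all probe sets, same-letter deviations correlated at -0.25 to 0.29, -0.16 to 0.01 and 0.02 to 0.13 in the 3 comparisons. Over the members alone they correlated at 0.63, 0.32 and 0.34 for A. For B these were -0.04, 0.02 and 0.19, and for C -0.14, 0.24 and 0.14. Thus the letters were not shown to pair the arrays over all probe sets, while the A arrays deviated alike in the members. A replicate block left 0 member calls in each comparison, and none of the 33297 probe sets was lower there either (limma). By the same fit, 19, 40 and 30 members were lower at an unadjusted p under 0.05.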
